A study of Mus musculus with 8 samples.

Results

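The interaction of ivosidenib and azacitidine was measured gene by gene as a departure from additive drug effects on the log2 scale: the mean with both drugs minus the mean with azacitidine, less the mean with ivosidenib minus the mean with vehicle. The comparison used 8 of the 8 libraries of the series and 12294 of its 12294 genes, so no gene was chosen by its values. All 8 libraries came from leukemic progenitor cells called I1DN, recovered from transplanted mice and sorted as positive for cKit and negative for CD11b. Vehicle, AG120 (ivosidenib), AZA (azacitidine) and the combination of both (AG120_AZA) had 2 libraries each, with a time of 5 days in every group. The controls carry the same I1DN cells; the alleles behind that name, the strain and age of the mice and the drug doses are not given in the sources used here. The sort was made per mouse, but the labels do not tie each library to a mouse of its own, so the p-values speak only of spread among the libraries at hand. Values are log2 CPM from sequencing of transcript 3′ ends. They are log2 counts scaled to a common library total and to one distribution shared by all libraries.

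Ivosidenib blocks mutant IDH1, an enzyme that makes 2-hydroxyglutarate. That metabolite inhibits 2-oxoglutarate dependent dioxygenases, among them the TET enzymes that oxidize methylated cytosine, and it holds leukemic progenitors back from differentiation. Azacitidine is a cytidine analogue that traps DNA methyltransferases on DNA, so that methylation is lost as cells divide. If each drug multiplied a transcript by the same factor with or without the other, the departure would be 0. A positive departure means that the level with both drugs was above that product, and a negative one that it was below.

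The labelled cell type was checked against its markers. Kit, the receptor used for the sort, lay between 4.26 and 6.65 log2 CPM, Cd93 between 6.76 and 8.93 and Myb between 7.89 and 8.79, while Itgam, which encodes CD11b, was detected at 2.10 to 4.53. Neutrophil maturation transcripts were nevertheless present in all 8 libraries: the summed level of 34 such genes ranged from 11.14 to 14.44 log2 CPM. In bulk RNA, fewer cells of a type and less RNA per cell cannot be told apart, and no count of the cells sorted by type was used here. AG120_AZA replicate 2 stood apart from the rest. Among 8478 genes with a mean of at least 3 log2 CPM, 66 were at least 2 log2 units lower in it than in each of the other 7 libraries, against 0 to 6 such genes in any other library. The departure of all 66 was negative, which their choice by a low value in that library favours. Depth could not be recovered from the deposited values, and replicates of a group correlated across genes at Pearson r of 0.921 to 0.936.

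No gene passed the test for a departure. With limma and Benjamini-Hochberg adjustment over 12294 genes, 0 genes (0.0%) had an adjusted p below 0.05, and 765 (6.22%) had an unadjusted p below 0.05, of which 365 (2.97%) were positive and 400 (3.25%) negative. The median departure was 0.02 log2 units, with 95% of genes between −2.44 and 2.37. The design was wide for this question: the median standard error of a departure was 0.535 log2 units, the median 95% interval reached 1.18 to either side, and a lone gene with that error would have needed a departure of 4.48 to be called. Departures of ordinary size were therefore not detectable in these libraries, which does not show that the drugs acted additively. A gene was also described as keeping one sign when its departure had that sign in all 16 choices of 1 library per group, which was the case for 1346 genes (10.9%) in the positive and 1042 (8.48%) in the negative direction.

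The effect of each drug was compared across genes without and with the other drug, using pairs of contrasts that share no library. The AG120 effect measured without AZA and that measured on top of AZA correlated at Pearson r = 0.427 across the 12294 genes (Spearman rho 0.387), and at 0.534 over the 8478 genes with a mean of at least 3 log2 CPM. The AZA effect measured without AG120 and that measured on top of AG120 correlated at r = 0.034 (rho 0.026), and at 0.033 over the same 8478 genes. Genes are not independent replicates, so these are descriptions. Genes that were higher with AG120 in one setting thus tended to be higher in the other, and for AZA the order of genes in one setting told next to nothing of the other. The median standard error of the AZA effect without AG120 was 0.378 log2 units. Effects that are small beside their error also correlate near 0, so the low r does not show that the AZA effect changed with AG120. AZA called 0 genes (0.0%) in either direction in either setting, with limma and Benjamini-Hochberg adjustment. AG120 called 44 genes higher (0.358%) and 27 lower (0.22%) without AZA, and 130 higher (1.06%) and 148 lower (1.2%) with it; a larger count is not in itself a difference between those settings, and the test of that difference is the departure, which no gene passed.

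**Figure D1:**
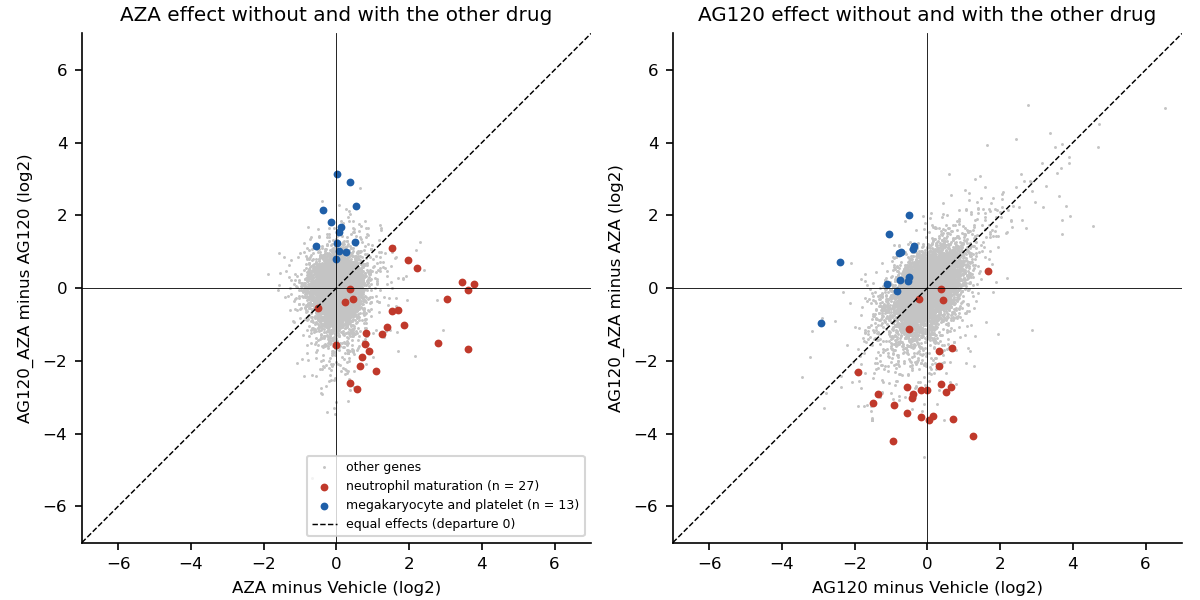
Effect of AZA (left) and of AG120 (right) per gene, in log2 units, without the other drug (horizontal axis) and with it (vertical axis), for the 8478 genes with a mean of at least 3 log2 CPM. Grey points are genes, red points 27 neutrophil maturation genes, blue points 13 megakaryocyte and platelet genes, and the dashed line marks equal effects; red points lie at or below the line and blue points above it in both panels.

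Genes of neutrophil maturation stood below the additive level. These encode secondary and tertiary granule proteins, surface receptors and other proteins of late neutrophil precursors. Stefins, the calprotectin subunits and a subunit of the NADPH oxidase are among the others. Of 36 genes in the list 34 were measured, and all 34 departures were negative, with a median of −2.61 log2 units against 0.02 over all genes. None passed the adjusted test, 19 had an unadjusted p below 0.05 in the negative direction (3.25% of all genes), and 21 kept a negative sign in all 16 choices (8.48% of all genes). The list's median difference between AZA and vehicle was 1.46, and its median difference between AG120_AZA and AG120 was −1.05; 25 of the 34 members were above 0 in the first and below 0 in the second. On the linear CPM scale 33 of 34 departures were negative too. Members of a list are read in the same 8 libraries and are not independent replicates. The counts of this list and of those below are therefore descriptions, and the lists were chosen with earlier results of these data known. The pooled SD between replicates of this list's library median was 0.55 log2 units.

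Stfa2, which encodes a stefin that inhibits cysteine proteases, had the smallest unadjusted p among the negative genes. It measured 2.03 and 4.22 log2 CPM in the vehicle libraries, 4.65 and 4.08 with AG120, 7.50 and 6.01 with AZA, and 3.01 and 2.37 with both drugs. The AZA libraries were higher than all 6 others, and both combination libraries lay far under the 7.995 that additive effects predict. The departure was −5.31 ± 0.94 log2 units (SE; limma adjusted p = 0.794 after Benjamini-Hochberg adjustment). Its neighbour Stfa2l1 followed the same order, at 2.26 and 4.83 in vehicle, 4.42 and 4.06 with AG120, 6.94 and 5.70 with AZA, and 3.27 and 2.18 with both, a departure of −4.29 ± 1.01. Of the related genes, Stfa3 had a departure of −3.28 ± 0.88, and Csta3 and Stfa1, named here after their values were seen, −3.93 ± 0.84 and −2.15 ± 1.15. These are paralogs. Over the last 200 bases of their first GENCODE M21 models, the end that was sequenced, Stfa2 and Stfa2l1 are 61.0% identical (69.8% over the whole transcript), and identity among Stfa1, Stfa2, Stfa2l1 and Stfa3 runs from 50.8% for Stfa1 and Stfa2 to 76.8% for Stfa1 and Stfa3. Whether reads were shared between them was not tested.

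The promoter windows of the stefins are shown because their values ran in the same order; they cover 300 bases around the start of transcription, from RefSeq on GRCm38.p6. Stfa2 is at chr16:36408314-36408613 on the minus strand and Stfa2l1 at chr16:36156561-36156860 on the plus strand. Capitals mark the longest stretch, 28 bases, that both windows share with that of Stfa3. The windows of Stfa2 and Stfa2l1 are 90.5% identical, and each is 81.0% identical to that of Stfa3.
Stfa2: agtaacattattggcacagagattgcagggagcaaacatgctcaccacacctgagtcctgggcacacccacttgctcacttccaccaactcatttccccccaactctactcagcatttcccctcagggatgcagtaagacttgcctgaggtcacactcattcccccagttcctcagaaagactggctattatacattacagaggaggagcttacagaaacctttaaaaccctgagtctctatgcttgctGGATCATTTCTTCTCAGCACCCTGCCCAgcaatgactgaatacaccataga
Stfa2l1: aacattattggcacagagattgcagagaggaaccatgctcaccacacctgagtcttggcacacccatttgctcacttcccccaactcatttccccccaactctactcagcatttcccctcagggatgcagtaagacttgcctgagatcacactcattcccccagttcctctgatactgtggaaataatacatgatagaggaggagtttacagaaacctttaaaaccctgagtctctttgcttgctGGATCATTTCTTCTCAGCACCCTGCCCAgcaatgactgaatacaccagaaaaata

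Ltf, the iron-binding lactoferrin of secondary granules, was highest in the AZA libraries too. Vehicle libraries stood at 4.01 and 4.28 log2 CPM, AG120 at 5.28 and 2.66, AZA at 7.41 and 6.98, and AG120_AZA at 4.02 and 3.30. The AZA libraries did not overlap with any other, and those with both drugs were within the range of vehicle and AG120. The departure was −3.36 ± 0.91. With 1 library left out it ranged from −4.67, without AG120 replicate 2, to −2.05. The Ltf promoter window, chr9:111019042-111019341 on the plus strand, carries 1 match to the C/EBP motif TTGCNNAA, searched on both strands and shown in capitals, since C/EBP factors drive granule genes in neutrophil precursors. It also holds 1 match to the GATA motif AGATAA, left in lower case.
Ltf: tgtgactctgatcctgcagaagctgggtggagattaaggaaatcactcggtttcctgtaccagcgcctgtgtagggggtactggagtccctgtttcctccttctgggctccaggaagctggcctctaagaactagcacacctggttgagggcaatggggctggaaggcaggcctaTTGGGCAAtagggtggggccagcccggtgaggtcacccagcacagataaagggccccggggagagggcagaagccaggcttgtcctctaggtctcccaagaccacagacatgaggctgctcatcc

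That motif was found in the windows of 9 of the 30 neutrophil maturation genes with a RefSeq window (30.0%), beside 925 of 9244 genes in the expression table with one (10.0%). Among megakaryocyte and platelet genes it was in 2 of 16 (12.5%). A match describes letters only, and the stefin windows shown above hold none.

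Several other members of the list had smaller negative departures than Stfa2 and Ltf. Camp, the antimicrobial cathelicidin, departed by −2.87 ± 0.85, Lcn2, the siderophore-binding lipocalin, by −2.60 ± 0.71, and Ngp, a further granule protein, by −2.28 ± 0.71. Chil3, a chitinase-like lectin, measured 5.94 and 5.28 in vehicle, 6.63 and 5.24 with AG120, 6.67 and 7.35 with AZA, and 5.14 and 4.57 with both drugs. The combination lay below every other library and AZA above, and the departure was −2.48 ± 0.62. Pglyrp1, a peptidoglycan-binding protein of the granules, had a departure of −2.06 ± 0.55. S100a8 and S100a9, the calprotectin subunits, were among the most abundant of the list and departed by −2.62 ± 0.99 and −2.52 ± 0.83. At the other end, Ncf1, a subunit of the NADPH oxidase, had a departure of −0.05 ± 0.39, and Lyz2, the myeloid lysozyme, of −0.40 ± 0.72.

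The simple effect of AG120 on top of AZA, which shares its libraries with the departure, passed the test for 11 of the 34 genes, all lower (1.2% of all genes). Among them Stfa3 fell by 4.22 ± 0.63 log2 units (limma, Benjamini-Hochberg adjusted p = 0.00949) and Camp fell by 3.42 ± 0.60 (adjusted p = 0.0183). Without AZA, 0 of the 34 passed the test for AG120 (limma, Benjamini-Hochberg adjusted). Of all genes, 0.358% passed there as higher and 0.22% as lower, so a list of this size would seldom hold any. A pass with AZA and none without it is not in itself a difference between those settings. The test of that difference is the departure, which none of the 34 passed. Over all genes the count for AG120 with AZA, 278, became 9 without the trend in the limma fit. How many of the 11 remained then was not counted.

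The vehicle libraries differed from each other in these transcripts, and that spread enters every departure of the list. The summed level was 12.28 and 14.24 log2 CPM in vehicle, 12.57 and 13.28 with AG120, 14.44 and 13.98 with AZA, and 12.31 and 11.14 with both drugs. Vehicle replicate 2 was thus as high as the AZA libraries in the sum, which S100a8 and S100a9 lead, while the median member was at 4.76 there against 6.65 and 6.02 with AZA. Without Vehicle replicate 1 the list's median departure was −1.84, and without AG120_AZA replicate 2 it was −1.90 with 12 members at an unadjusted p below 0.05. The part played by mature cells in the sort was not tested. Ly6g, a surface marker of mature neutrophils, had 0.08 and −0.17 in vehicle, 0.72 and −3.63 with AG120, 2.58 and 3.42 with AZA, and 0.85 and 0.08 with both.

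**Figure D2:**
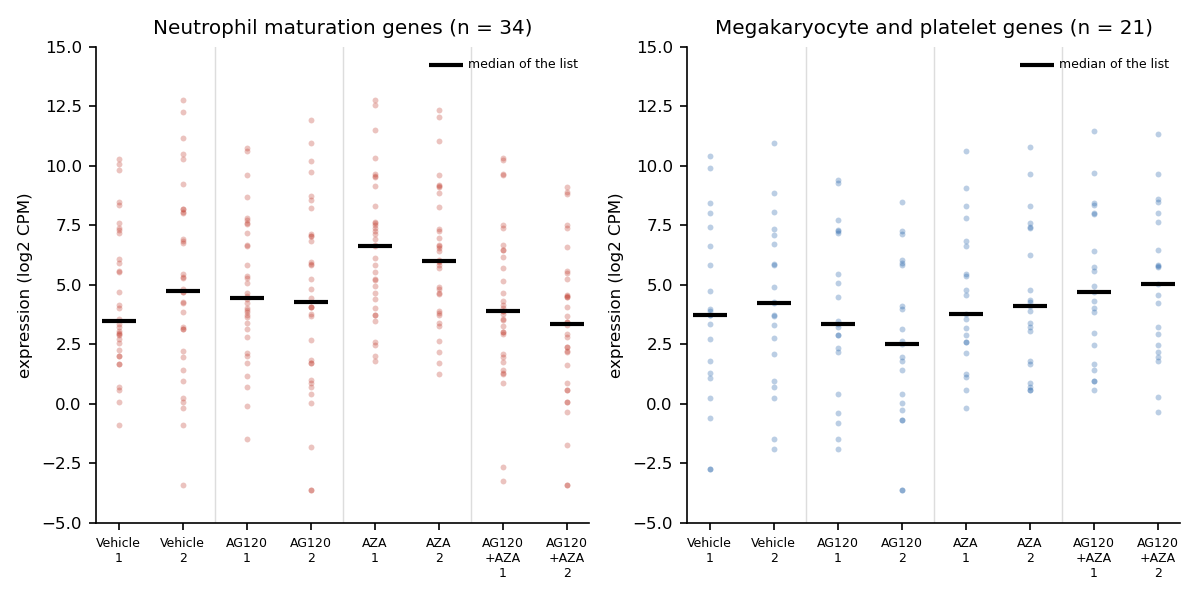
Expression in log2 CPM of 34 neutrophil maturation genes (left) and 21 megakaryocyte and platelet genes (right) in each of the 8 libraries; points are genes and the black bar is the list's median. The neutrophil medians are highest in the AZA libraries, at 6.65 and 6.02, and the megakaryocyte medians are lowest in AG120 replicate 2, at 2.53, and highest with both drugs, at 4.71 and 5.03.

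Primary granule genes, which promyelocytes switch on before the genes above, had a median departure of −1.74, and all 18 measured members of 20 were negative. None passed the adjusted test, 10 had an unadjusted p below 0.05 (3.25% of all genes in that direction) and 5 kept their sign in all 16 choices (8.48%). Mpo, the myeloperoxidase that makes hypochlorous acid, measured 12.38 and 13.37 log2 CPM in vehicle, 12.76 and 13.37 with AG120, 12.92 and 13.20 with AZA, and 11.97 and 10.90 with both. Each single drug overlapped with vehicle, and both combination libraries lay below all others, a departure of −1.82 ± 0.55. The value 13.37 is the maximum shared by every library, so the top-ranked gene of a library has it whatever its CPM. Prss57, a serine protease, departed by −1.67 ± 0.59. The list also holds genes of proteins that are not granule proteins. Calr, the chaperone calreticulin and also a member of the heat shock list, departed by −1.23 ± 0.41. Hk3, a myeloid hexokinase and likewise not a granule protein, departed by −1.84 ± 0.65. It was at 4.94 in AG120_AZA replicate 2 and between 6.87 and 8.34 in the other 7 libraries. In this list the AZA difference without AG120 was small, at a median of 0.22, and on top of AG120 it was −1.52. The count at an unadjusted p below 0.05 rested on single libraries: it was 1 without AG120 replicate 2, 2 without Vehicle replicate 1 or AZA replicate 2, 4 without AZA replicate 1 and 3 without AG120_AZA replicate 2.

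Eosinophil genes were likewise below the additive level, with a median of −1.90 and 10 of 10 members negative, none past the adjusted test and 2 at an unadjusted p below 0.05 (3.25% of all genes in that direction). That count was 5 without Vehicle replicate 2, 1 without AG120_AZA replicate 2, and 2 or 3 without any other library. The list's median difference from vehicle was 3.77 with AG120 and 1.73 with AZA, and AZA on top of AG120 gave −0.81. Epx, the eosinophil peroxidase, measured 0.56 and 3.28 in vehicle, 5.80 and 7.17 with AG120, 3.03 and 4.13 with AZA, and 5.80 and 4.76 with both. AG120_AZA replicate 1 was level with the lower AG120 library and AG120_AZA replicate 2 was below it, and the departure was −2.87 ± 1.10. Ear2, an eosinophil ribonuclease, was near the floor in vehicle at −2.74 and −3.43, so its departure of −6.52 ± 1.36 depends on how low values are scaled. The list's median was −0.62 on the log2(CPM + 8) scale. Among basophil and mast cell genes, 15 of 19 were measured, 3 of them positive and 12 negative, at a median of −0.33. That median was 0.15 without Vehicle replicate 2, 0.05 without AG120 replicate 1 and between −0.82 and −0.06 without any other single library. Mcpt8, a basophil protease, stood at 2.49 and 2.68 in vehicle, 6.66 and 6.13 with AG120, 3.80 and 4.45 with AZA, and 6.61 and 6.17 with both. The combination matched AG120 alone in place of the additive 7.93, a departure of −1.54 ± 0.46. Fcer1a, the alpha chain of the IgE receptor, went the other way at 4.42 ± 2.07 and kept a positive sign in all 16 choices. Its values were low without the combination, at −2.74 and −0.17 in vehicle, −0.09 and −0.68 with AG120 and −3.63 and −3.43 with AZA. In 3 libraries it was at the lowest value of the library. With both drugs it stood at 1.61 and 2.31, so this departure too depends on how low values are scaled.

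Megakaryocyte and platelet genes lay above the additive level. These encode the granule chemokines, adhesion receptors and signalling proteins that megakaryocytes pass on to platelets. All 21 measured members of 22 had a positive departure, with a median of 1.22 log2 units against 0.02 over all genes. None passed the adjusted test, 11 had an unadjusted p below 0.05 in the positive direction (2.97% of all genes) and 9 kept a positive sign in all 16 choices (10.9% of all genes). The list's median AG120 difference was −0.75 without AZA and 0.71 with it, and 12 of the 21 members were below 0 in the first and above 0 in the second. On the linear scale 20 of 21 were positive. These members too are not independent replicates, and the pooled SD between replicates of the list's library median was 0.38 log2 units.

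Pf4, platelet factor 4, a chemokine of the alpha granule, had the largest values of the list. It measured 10.42 and 10.96 log2 CPM in vehicle, 9.42 and 7.15 with AG120, 10.62 and 10.78 with AZA, and 11.49 and 11.33 with both drugs. The AG120 libraries were the lowest and the combination libraries the highest, with no overlap, where additive effects predict 8.29. The departure was 3.12 ± 0.75, an 8.69-fold excess (limma adjusted p = 0.794 after Benjamini-Hochberg adjustment). The AG120 libraries differed from each other by more than the other pairs: leaving out AG120 replicate 1 gave 4.26 (limma adjusted p = 0.00306, the smallest over the alternatives, which reach 1), and leaving out AG120 replicate 2 gave 1.98. The Pf4 window is shown because GATA and ETS factors together drive megakaryocyte genes. It covers chr5:90772185-90772484 on the plus strand, and capitals mark 1 match to the GATA motif AGATAA and 1 to the ETS motif GGAAGT, each searched on both strands. The window also holds 1 match to the C/EBP motif TTGCNNAA, left in lower case.
Pf4: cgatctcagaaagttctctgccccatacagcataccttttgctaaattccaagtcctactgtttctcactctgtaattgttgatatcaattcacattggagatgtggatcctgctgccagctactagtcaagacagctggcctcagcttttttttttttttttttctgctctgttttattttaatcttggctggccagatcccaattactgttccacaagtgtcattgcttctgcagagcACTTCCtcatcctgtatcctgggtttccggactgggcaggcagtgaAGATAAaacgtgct

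AGATAA was found in the windows of 5 of the 16 members with a RefSeq window (31.2%), beside 8.17% of the 9244 genes of the expression table that have one, and GGAAGT in 9 of the 16 (56.2%), beside 33.6%. The neutrophil maturation genes, whose departures were negative, also had both more often than the table as a whole, with AGATAA in 8 of 30 windows (26.7%) and GGAAGT in 14 of 30 (46.7%), so neither motif is particular to the megakaryocyte list. These are letter matches, and no binding was measured.

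Treml1, a receptor of the platelet granule membrane, measured 2.70 and 4.28 in vehicle, 2.90 and 1.97 with AG120, 3.58 and 4.13 with AZA, and 4.94 and 5.76 with both. The combination was again above all other libraries, and the departure was 2.55 ± 0.78. Nrgn, a calmodulin-binding protein found in platelets, had a smaller but tighter departure of 0.96 ± 0.31, and Rab27b, a GTPase of granule release, one of 1.71 ± 0.60. Gnaz, a G protein alpha subunit present in platelets that was named by the rule for all genes, stood at 4.51 and 4.94 in vehicle, 3.37 and 1.86 with AG120, 4.27 and 4.36 with AZA, and 4.42 and 5.60 with both. Only AG120 alone stood below the other groups, a departure of 2.80 ± 0.73. Itga2b, the CD41 integrin chain that early megakaryocyte precursors already carry, departed by 0.82 ± 0.50, and Gp9, a subunit of the von Willebrand factor receptor, by 0.77 ± 0.58. Without AG120 replicate 2, 2 members had an unadjusted p below 0.05 in place of 11, and the list's median was 0.88. That count was 5 without AZA replicate 1, 6 without AZA replicate 2 or AG120_AZA replicate 1, and 7 without AG120_AZA replicate 2. The median was 1.97 without AG120 replicate 1.

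**Figure D3:**
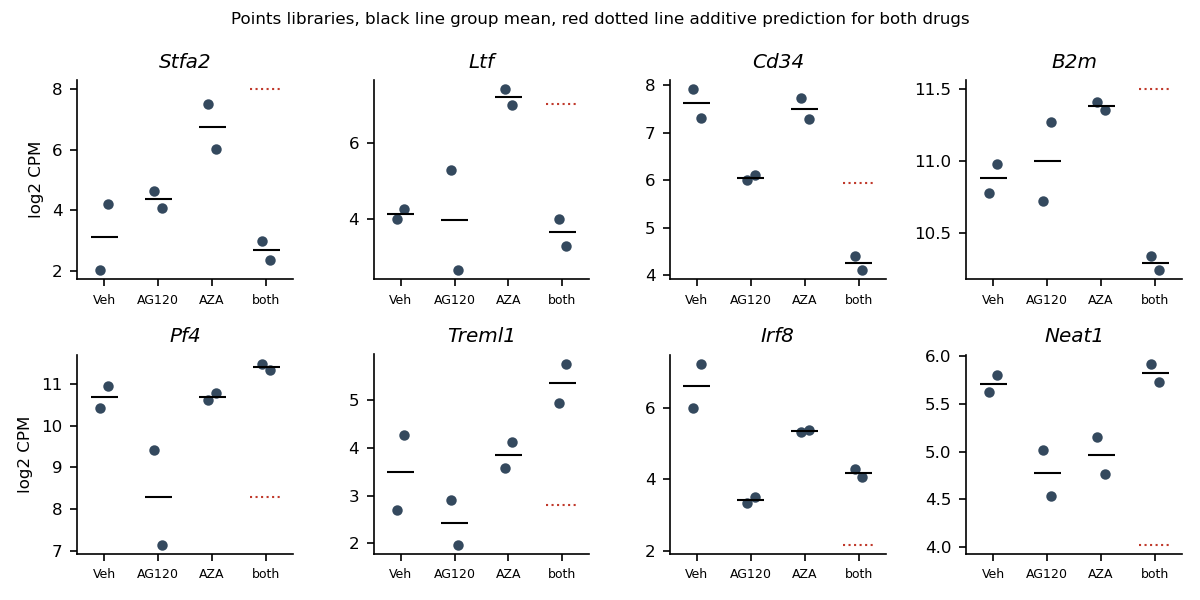
Expression in log2 CPM of 8 genes in the 4 groups; points are the 2 libraries of a group, black lines group means, and the red dotted line the level that additive effects predict for both drugs. Axes differ between genes and do not start at 0. Stfa2, Ltf, Cd34 and B2m (top) lie below the dotted line with both drugs, and Pf4, Treml1, Irf8 and Neat1 (bottom) above it.

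Globin genes showed the same side. All 5 measured members of 11 had positive departures, with a median of 1.76, none past the adjusted test and 1 at an unadjusted p below 0.05 (2.97% of all genes in that direction). Hbb-bs, an adult beta-globin gene, stood at 10.62 and 10.10 in vehicle, 9.64 and 7.40 with AG120, 10.40 and 11.63 with AZA, and 11.33 and 11.20 with both, a departure of 2.09 ± 0.82. AG120 replicate 2 was the lowest library for it as for Pf4, and without it the list's median was 0.77; without AZA replicate 1 the median was 0.88. Globin paralogs can share reads. Genes of the early erythroid program did not share one direction: 21 of 31 measured members were positive and 10 negative, with a median of 0.53 that turned to −0.19 without AZA replicate 1. Tal1 and Gata1, transcription factors shared by erythroid and megakaryocytic cells, had departures of 1.20 ± 0.47 and 1.10 ± 0.50. Gata1 stood at 7.40 and 6.42 in vehicle, 8.39 and 7.54 with AG120, 6.69 and 7.06 with AZA, and 8.79 and 9.25 with both, so that the libraries with both drugs were above all others.

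Genes of MHC class I presentation, which load peptides and carry them to the cell surface, tended below the additive level. The median over 20 measured members of 21 was −0.90, with 16 negative and 4 positive. None passed the adjusted test, 5 had an unadjusted p below 0.05 in the negative direction (3.25% of all genes), and 8 kept a negative sign in all 16 choices (8.48% of all genes). B2m, the light chain of the class I molecule, measured 10.78 and 10.98 log2 CPM in vehicle, 10.72 and 11.27 with AG120, 11.41 and 11.36 with AZA, and 10.34 and 10.24 with both. The AZA libraries were the highest and the combination libraries the lowest, without overlap, a departure of −1.21 ± 0.30. H2-D1, a class I heavy chain, measured 8.30 and 8.58 in vehicle, 8.37 and 8.50 with AG120, 9.12 and 9.16 with AZA, and 8.36 and 7.99 with both. It was highest with AZA alone, and with both drugs 1 library was in the vehicle range and the other below it, for a departure of −0.96 ± 0.28. The immunoproteasome subunits Psmb8 and Psmb9 departed by −0.83 ± 0.32 and −1.74 ± 0.65, and Psmb9 was at 4.40 in AG120_AZA replicate 2 against 6.28 to 7.53 elsewhere. Tap2, a peptide transporter named after its values were seen, was at −0.34 in that library and at 4.45 to 5.72 in the other 7. Heavy chain genes are close paralogs and may share reads. Without AG120_AZA replicate 2 the list's median was −0.57 with 3 members at an unadjusted p below 0.05, and that count was 2 without AG120 replicate 2 and 3 without AZA replicate 1.

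Interferon-stimulated genes gave a weaker tilt, with 39 of 60 measured members negative and a median of −0.41. None passed, 3 had an unadjusted p below 0.05 in the negative direction (5.00% of the list, 3.25% of all genes), and 11 kept a negative sign in all 16 choices (8.48%). The count of 3 fell to 1 on leaving out AZA replicate 2 or either AG120_AZA library and reached 5 on leaving out Vehicle replicate 2, and the median was −0.25 without AG120_AZA replicate 1. Ifitm3, a membrane protein that blocks virus entry, stood at 7.86 and 8.11 in vehicle, 7.995 and 8.585 with AG120, 8.83 and 9.95 with AZA, and 8.06 and 8.72 with both, a departure of −1.30 ± 0.50. The AZA libraries were above all others.

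Transcripts of immaturity did not share one direction. Cd34, a surface sialomucin of stem and progenitor cells, measured 7.91 and 7.31 in vehicle, 5.998 and 6.11 with AG120, 7.72 and 7.28 with AZA, and 4.41 and 4.10 with both. AZA alone overlapped with vehicle, while the combination was lower than AG120 alone in both libraries, at a departure of −1.69 ± 0.38. The change of Cd34 with AG120 passed the test both without AZA, at −1.56 ± 0.27 log2 units (limma, Benjamini-Hochberg adjusted p = 0.0295), and with it, at −3.24 ± 0.27 (adjusted p = 0.00113). Cd93, another progenitor surface protein, fell by 1.75 without AZA (limma, Benjamini-Hochberg adjusted p = 0.00836) and by 1.78 with it (adjusted p = 0.00376), and its departure was −0.03 ± 0.32. Spi1, the myeloid transcription factor PU.1, had a departure of −0.96 ± 0.43. Over the 23 of 34 stem and progenitor genes measured, 9 departures were positive and 14 negative, from −5.48 for Procr to 3.71. None passed the adjusted test. An unadjusted p below 0.05 was found for 4 in the negative direction (17.4% of the list, 3.25% of all genes) and 0 in the positive. The list's median was −0.33. It lay between −0.52 and 0.10 with 1 library left out, above 0 on leaving out Vehicle replicate 2.

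Irf8, which directs monocyte and dendritic cell precursors as a transcription factor, stood out in the other direction. It measured 5.99 and 7.23 in vehicle, 3.33 and 3.52 with AG120, 5.32 and 5.39 with AZA, and 4.30 and 4.07 with both. The combination was higher than AG120 alone and lower than AZA alone, without overlap, and above the additive 2.17, a departure of 2.02 ± 0.53. Monocyte genes as a list had 7 positive and 13 negative departures, with a median of −0.60 that was −0.12 without Vehicle replicate 1, −0.33 without AG120_AZA replicate 2, −0.38 without AZA replicate 1 and −0.24 on log2(CPM + 8). Of 15 dendritic cell genes 10 were measured, 7 of them positive and 3 negative, with a median of 0.50. That median rested on single libraries: it was 1.28 without AG120 replicate 1 and −0.73 without AG120 replicate 2.

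The rule for single genes took the 12 smallest unadjusted p-values in each direction among named genes with a mean of at least 3 log2 CPM, and none of these 24 passed (limma, Benjamini-Hochberg adjusted p = 0.794 for each). Among the positive genes outside the lists above, Neat1, a nuclear noncoding RNA that builds paraspeckles, stood at 5.63 and 5.80 in vehicle, 5.02 and 4.53 with AG120, 5.16 and 4.76 with AZA, and 5.92 and 5.73 with both. Either drug alone was below vehicle and the combination was level with it, a departure of 1.80 ± 0.39. Cirbp, a cold-inducible RNA-binding protein, departed by 1.55 ± 0.40, Hps4, which helps to build lysosome-related organelles such as platelet dense granules, by 1.50 ± 0.41, and Ddah2, an enzyme family member linked to methylarginine turnover, by 1.70 ± 0.46. The others were Plxdc1 at 2.46, Epdr1 at 2.31, Tango2 at 1.54, Ubxn2b at 1.48 and Phactr4, a regulator of phosphatase and actin, at 1.29.

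Among the negative genes, Rhob, a small GTPase that responds quickly to stress, stood at 7.44 and 7.80 in vehicle, 8.17 and 8.29 with AG120, 8.78 and 8.08 with AZA, and 7.12 and 7.39 with both. Either drug alone was above vehicle in each library, and the combination was below it, a departure of −1.78 ± 0.35. Fos, an immediate early transcription factor, stood at 4.45 and 3.73 in vehicle, 5.26 and 4.38 with AG120, 5.22 and 4.95 with AZA, and 3.40 and 3.78 with both, a departure of −2.23 ± 0.55. The libraries with both drugs overlapped with vehicle and lay below those with 1 drug. Clec4e, a receptor of myeloid cells for mycobacterial glycolipid and dying cells, measured 4.77 and 5.10 in vehicle, 4.20 and 4.98 with AG120, 5.70 and 5.92 with AZA, and 3.27 and 2.85 with both, a departure of −2.41 ± 0.48. The AZA libraries were the highest and the combination the lowest. The others were Dio2, a deiodinase that activates thyroid hormone, at −2.27, Edem2, a factor of endoplasmic reticulum degradation, at −1.74, Adam15, a membrane metalloprotease, at −1.65 and Slc4a8, a bicarbonate transporter, at −1.40. The 24 genes were chosen by their departures, so their values are a description.

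**Figure D4:**
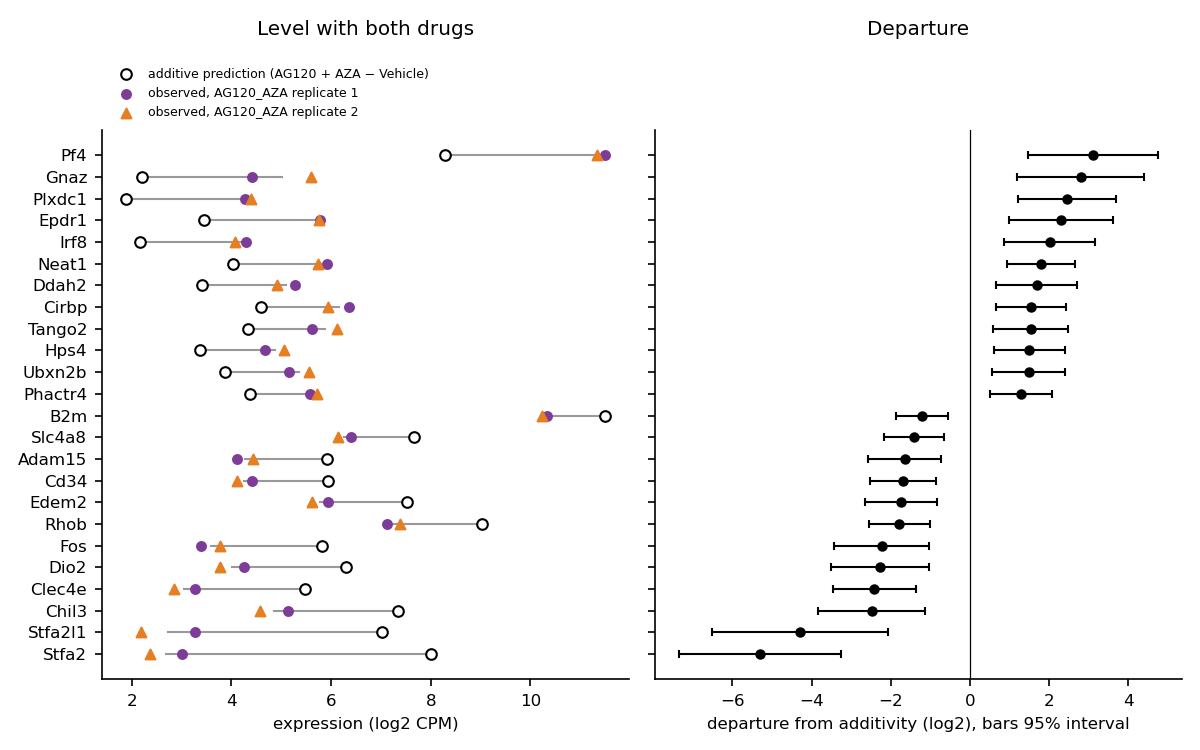
The 24 genes with the smallest unadjusted p for a departure, 12 per direction. Left, level with both drugs in log2 CPM: open circles are additive predictions, filled circles and triangles the 2 AG120_AZA libraries; right, departure in log2 units with its 95% interval from the pooled spread. Both observed libraries lie on one side of the prediction in each gene, which the choice of genes by p favours, and no gene passed the adjusted test.

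Lists of stress and inflammation genes had negative medians, of which that of the immediate early genes, Fos among them, rested on single libraries. Of 29 immediate early genes 20 were negative and 9 positive, with a median of −0.38, which turned to 0.16 without Vehicle replicate 2 and to 0.14 without AG120 replicate 1, and lay between −0.87 and −0.19 without any other single library. Zfp36, which speeds the decay of cytokine messages, departed by −1.37 ± 0.53 and Klf6, a zinc finger factor, by −1.50 ± 0.60. Of 31 inflammatory genes, Clec4e among them, 22 were negative, with a median of −0.41 that was −0.22 without AZA replicate 1 and −0.79 without AZA replicate 2. Ccl4, a chemokine, departed by −2.65 ± 0.76 and Cd14, the lipopolysaccharide co-receptor, by −4.64 ± 1.37, with Vehicle replicate 1 at −0.09 and Vehicle replicate 2 at 3.39. Of 25 heat shock and chaperone genes 19 were negative, with a median of −0.44 (−0.25 without AZA replicate 1, −0.28 without AG120 replicate 1), and 4 had an unadjusted p below 0.05 in the negative direction (3.25% of all genes). That count was 1 without Vehicle replicate 1 or AZA replicate 2, and 2 without AG120 replicate 2 or AG120_AZA replicate 2. The 4 were Manf, a secreted stress protein, at −1.75 ± 0.47, Sdf2l1, a chaperone partner, at −1.73 ± 0.62, Hyou1, a chaperone, at −1.19 ± 0.48, and Calr. Manf stood at 7.11 and 7.46 in vehicle, 8.07 and 8.61 with AG120, 7.44 and 8.14 with AZA, and 7.54 and 6.64 with both, so that the combination overlapped with vehicle.

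The p53 target list had 27 of 43 members positive and a median of 0.34. Without Vehicle replicate 1 the median was 0.03, with 22 positive and 21 negative, while it was 0.13 without AG120 replicate 2 and 0.19 without AZA replicate 1. None of the 43 passed, and 3 had an unadjusted p below 0.05 (2.97% of all genes in the positive direction), a count that was 0 without AG120 replicate 2 or AG120_AZA replicate 2 and 1 without Vehicle replicate 1. Aen, a nuclease induced by p53, stood at 5.35 and 5.59 in vehicle, 5.90 and 5.53 with AG120, 5.22 and 5.52 with AZA, and 6.39 and 6.84 with both. It was higher with both drugs than in any other library, a departure of 1.00 ± 0.37. The change with AG120 on top of AZA passed the test for Aen at 1.25 ± 0.26 (limma, Benjamini-Hochberg adjusted p = 0.0365). Trp53cor1, a noncoding p53 target next to the gene of the inhibitor p21, departed by 1.59 ± 0.77.

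No drug target passed the test for a departure. The 10 drug targets and DNA methylation enzymes described here had a median of −0.06 (−0.15 to 0.06 with 1 library left out), none with an unadjusted p below 0.05. Idh1 and Idh2, the isocitrate dehydrogenases, departed by −0.90 ± 0.60 and −0.11 ± 0.28, and D2hgdh, which breaks down 2-hydroxyglutarate, by 0.29 ± 0.57. Idh1 was at 6.94 in AG120_AZA replicate 2 and at 7.58 to 8.62 in the other libraries. Dnmt1, the maintenance methyltransferase that azacitidine depletes as a protein, departed by −0.16 ± 0.30 with a 95% interval of −0.81 to 0.50. Its partner Uhrf1 departed by −0.01 ± 0.28, and the de novo enzymes Dnmt3a and Dnmt3b by 0.20 ± 0.37 and 0.15 ± 0.57. Among the dioxygenases Tet1, Tet2 and Tet3, the values were −0.83 ± 1.75, −0.84 ± 0.73 and 1.02 ± 0.52. Of 17 genes that take up, activate or inactivate azacitidine, Cda, the deaminase that inactivates it, stood at 2.03 and 1.27 in vehicle, 4.83 and 3.35 with AG120, 0.98 and 3.07 with AZA, and 5.92 and 6.33 with both. The combination was the highest group, but the AZA libraries were far apart and the departure was 1.66 ± 0.96. Slc28a2, a concentrative nucleoside transporter, departed by −2.45 ± 0.98, and the list's median was −0.24, which turned to 0.04 without AG120_AZA replicate 2 and lay between −0.33 and −0.03 without any other single library.

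Growth and housekeeping lists had medians nearer 0. The medians were −0.01 for 55 DNA replication genes, −0.01 for 50 mitosis genes, 0.17 for 46 MYC targets, 0.00 for 79 cytosolic ribosomal proteins and −0.02 for 59 nuclear-encoded oxidative phosphorylation genes. The MYC targets had 32 positive and 14 negative members, and their median was −0.01 without AZA replicate 1. Beside 6.22% of all genes, an unadjusted p below 0.05 was found for 1 DNA replication gene, 2 mitosis genes, 0 MYC targets, 1 oxidative phosphorylation gene, and 2 positive and 3 negative ribosomal protein genes. Among the lists not described so far, those of heme synthesis, the BCL2 family, ATF4 targets, cholesterol synthesis, glycolysis, mitochondrially encoded, imprinted and T and NK cell genes also had medians within 0.30 of 0. Not all stayed there with 1 library left out. The T and NK cell median was 1.53 without AZA replicate 1 and −0.64 without AZA replicate 2, and the cholesterol median was −0.41 without Vehicle replicate 2. The lymphoid and stromal lists rested on few measured genes, with 2 for B cells, 8 for T and NK cells and 3 for stroma.

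**Figure D5:**
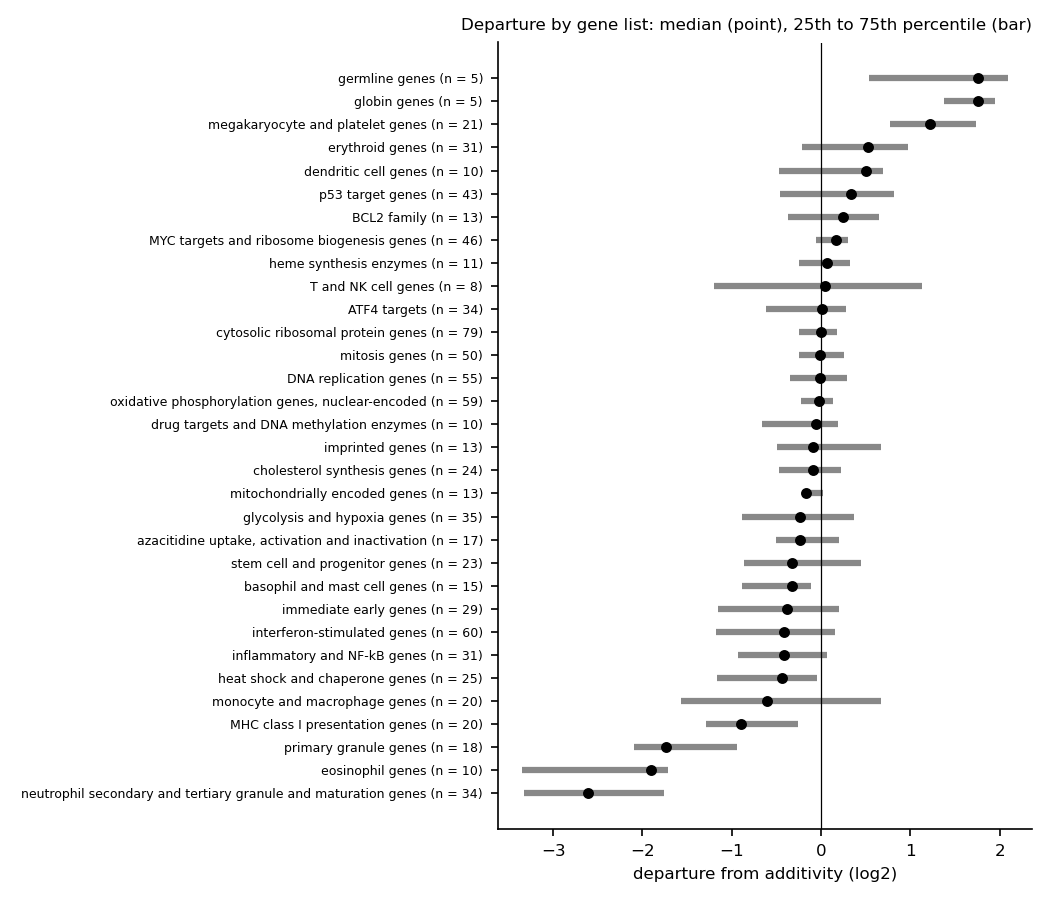
Departure from additivity in log2 units for the 32 gene lists with at least 5 measured genes; the point is the median over members and the bar runs from the 25th to the 75th percentile. The neutrophil maturation list lies lowest at −2.61 and the germline and globin lists, with 5 genes each, highest at 1.76. On log2(CPM + 8) the germline median was 0.47 and the globin median 1.29.

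Xlr4c, of the X-linked lymphocyte-regulated family and a member of the germline list, had the smallest p of all 12294 genes, and it is named after its values were seen because its mean of 1.07 log2 CPM is under the limit of the naming rule. It stood at 3.16 and 2.31 in vehicle, 1.28 and 0.56 with AG120, −2.25 and −3.43 with AZA, and 3.60 and 3.35 with both drugs. The AZA libraries were at or near the lowest value of the table, while the combination libraries were above both vehicle libraries. The departure was 8.13 ± 1.12 (limma, Benjamini-Hochberg adjusted p = 0.196). Its paralogs Xlr4b and Xlr4a departed by 0.54 ± 0.40 and 1.76 ± 2.38, and reads may be shared among them. The germline list had 5 measured members of 40, so most of it was not analysed here. Only 1 of the 5 had a mean of at least 3 log2 CPM. The list's median of 1.76 depends on how low values are scaled: it was 0.53 on log2(CPM + 1) and 0.47 on log2(CPM + 8). Without AZA replicate 2 it was 0.40. Tdrkh, a factor of piRNA processing, departed by 2.09 ± 0.93.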

How the data were processed

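The authors deposited log2 CPM values for 12294 genes in 8 libraries, scaled so that all libraries share one distribution; each has a maximum of 13.37. The submitters' processing notes name HISAT2 2.1.0 and featureCounts beside limma 3.42.2, cutadapt 1.14 and build mm10; the annotation and strand setting are not given in the sources used here. Library totals are lost, so depth is unknown and no counting interval is given.

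The values were used unfiltered in limma 3.58.1 (R 4.3.3; lmFit, eBayes with a trend; 4 group means, 4 residual and 7.06 prior degrees of freedom), with Benjamini-Hochberg adjustment over 12294 genes and a call at an adjusted p below 0.05, two-sided. The script was tested on simulated data. Errors are moderated SE. Gene lists are described by counts and medians, without a set test. Named genes are the 12 per direction called or, failing that, with the smallest unadjusted p (mean log2 CPM of at least 3, unnamed models skipped), up to 4 members per list by smallest p, all drug targets but 1 that is not reported here, and cell type markers. The members and lists were chosen with earlier results of these data known. Sequences are from RefSeq (GRCm38.p6), and identities were computed with Biopython 1.88. Bisulfite data were not analysed here. Alternatives were 2 expression filters, 2 pseudocounts, no trend, 2 weightings, centring, a replicate block and omission of each library.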

Additional observations from a re-analysis of the deposited data

How the results depend on the processing

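No gene was called for the departure in the 9 alternatives that keep all libraries. With 1 library left out the count ranged from 0 to 29: it was 29, all negative, without AG120_AZA replicate 1, and 22 of those 29 are among the 66 genes low in AG120_AZA replicate 2; it was 2 without Vehicle replicate 2 (Saa3 and Stfa2) and 1 each without AG120 replicate 1 (Pf4) or AG120 replicate 2 (Ltf). The 24 genes named by rule kept their sign in every alternative run, which their choice by p favours.

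The count for AG120 without AZA, 71, became 23 with a mean of at least 5 log2 CPM, 0 without the trend and 39 with vooma weights, and ranged from 8 to 103 with 1 library left out. The count for AG120 with AZA, 278, became 67, 427 on log2(CPM + 1), 428 on log2(CPM + 8), 9 without the trend and 174 with library weights, and ranged from 14 to 594. The counts for AZA, 0 and 0, became 2 without the trend in the absence of AG120, ranged from 0 to 1 there, and from 0 to 213 with AG120, the highest without AG120_AZA replicate 1. The cause was not tested.

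With 1 library left out, list medians ranged from −3.12 to −1.84 for neutrophil maturation, −2.23 to −1.0 for primary granule, −0.19 to 0.84 for erythroid, 0.88 to 1.97 for megakaryocyte and −1.03 to −0.57 for MHC class I genes. On log2(CPM + 8) the neutrophil median was −1.95, the megakaryocyte median 0.81 and the MHC class I median −0.42. Departures that changed sign with 1 library left out ranged from −0.30 to 0.08 for Idh2, −0.30 to 0.88 for D2hgdh, −0.40 to 0.09 for Dnmt1, −0.32 to 0.27 for Cd93, −0.07 to 0.48 for Dnmt3a, −0.29 to 0.59 for Dnmt3b, −0.17 to 0.16 for Uhrf1, −2.73 to 1.07 for Tet1, −1.71 to 0.04 for Tet2 and −0.41 to 3.94 for Xlr4a; Tet1 was 0.05 on log2(CPM + 8).

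Same-numbered libraries deviated together little across all genes (r between −0.111 and 0.194 over the pairs of groups). A correlation over all genes cannot exclude a pairing that touches part of them, so whether the numbers pair the samples is not known. A replicate block gave 0 genes for the departure and 60 and 213 for AG120 without and with AZA. The unknown depth limits low genes such as Xlr4c and Ear2.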
